A study of Mus musculus with 9 samples.

Results

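The comparison was between D2.0R cells kept for 5 days and for 1 day on basement membrane extract (BME), and it asks what changes in the transcriptome with time while the cells are held in the dormant state. D2.0R is a mouse mammary tumour line derived from spontaneous hyperplastic alveolar nodules. Cells of both groups were plated on growth factor-reduced Cultrex BME in low-glucose medium with low serum and a little dissolved BME. Neither group received type I collagen (COL1), and no drug, transgene or genetic change separates them, so that the labels differ only in the day of harvest. The paper re-fed its cultures every 5 days and does not say whether the day 5 harvest came before or after feeding. The age of the medium may thus differ between the groups, and it cannot be told apart from time on BME. The line is cultured alone, and BME is itself an extract of a mouse tumour, with laminin as its main protein beside type IV collagen. Each group had 3 libraries, which the study calls biological replicates, named a, b and c. The p-values below measure only the spread between these libraries. The series holds 9 libraries in all, and 6 of them entered the comparison. Abundance was given as FPKM, which scales fragments by transcript length and by the fragments mapped. Of 23309 gene symbols, the 10530 whose mean over these libraries reached 1 FPKM are the genes described here. A gene is said to rise or fall where limma, fitted across all 10530 genes on log2(FPKM + 0.1), gave an adjusted p under 0.05. A change is always day 5 minus day 1 on this log2 scale, which understates the change of genes near 0.1 FPKM.

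A quiescent cell has left the cell cycle reversibly. It keeps the machinery for growth but runs it at a lower rate, and it depends more on recycling of its own components, which is the work of autophagosomes and lysosomes. Contact with basement membrane, mainly through laminin-binding integrins, is known to hold mammary epithelial cells in an organised, non-dividing state, whereas stiff fibrillar collagen promotes their growth. Cells also build and remodel the matrix around them with time, through secreted glycoproteins, proteases and their inhibitors.

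The libraries were first compared with each other. Aligned sequence came to 7.21 to 8.77 gigabases per library, which left values of 1 to 5 FPKM with a typical Cufflinks interval of 11.5% to 12.3% in each direction. Replicate b of BME day 5 stood apart. It had 312 genes more than 2-fold below both other day 5 libraries and 40 more than 2-fold above both, against at most 27 and 40 in any of the other 5 libraries. The median gap to the other day 5 libraries, on the log2 scale, was -0.24 over all genes, -1.48 for the mitosis genes, -1.08 for the S phase genes and -0.52 for the ribosomal protein genes. It was 0.01 for the lysosomal genes, 0.36 for the cholesterol synthesis genes and 0.62 for complement and acute phase genes. Outside the small RNA genes, those farthest below included Mcm6 of the replicative helicase, with 24.2, 5.54 and 20.5 FPKM at day 5 in replicates a, b and c, the collagen gene Col6a3, with 13.2, 2.92 and 11.8, and the interleukin receptor chain Il2rg, with 9.52, 1.15 and 10.2. The nuclear RNA Neat1 lay far above, with 54.1, 225 and 60.9. Genes under 300 nt made up 7.25% of the FPKM of BME day 5 replicate a, and 0.44% to 1.33% of that of the other libraries. Markers of the labelled cell type were present, with Krt8 and Krt18, the simple epithelial keratins, at 362 FPKM or more in every library and Cdh1 (E-cadherin) at 15.9 or more, whereas Epcam reached at most 1.59. Of the markers of its own type, 4 of 9 epithelial ones (Krt5, Cldn3, Cldn4 and Cldn7) and 4 of 6 mammary luminal ones were under 1 FPKM in all 6 libraries. Of the markers of other cells, those under 1 FPKM in all 6 libraries were 10 of 12 for blood cells, 9 of 10 for endothelium, 8 of 12 for fibroblasts and 5 of 5 for adipocytes. The summed FPKM of the blood cell markers was 6.87 to 10.1 at day 1 and 5.66 to 6.91 at day 5, and Cd3e and Cd52 were at 0 throughout. That of the fibroblast markers was 24.3 to 31.8 and 50.9 to 62.5, with Lum and Dpt at 0.

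**Figure D1:**
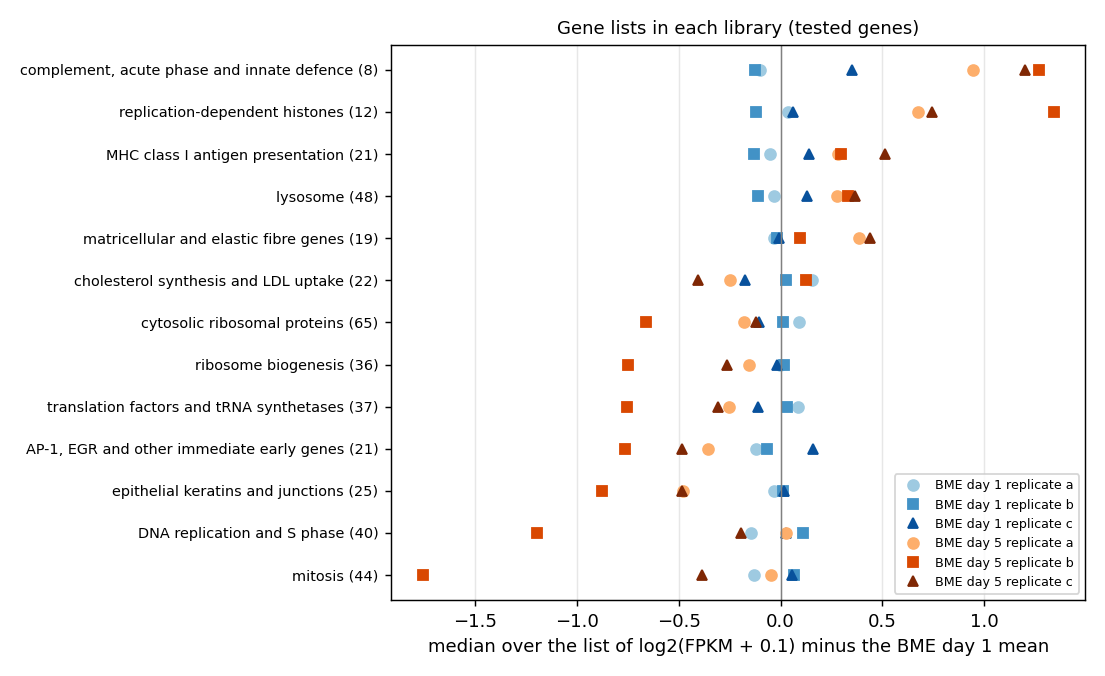
Median position of 13 gene lists in each library, as the median over the list's tested genes (number in brackets) of log2(FPKM + 0.1) minus the mean of the BME day 1 libraries. Blue marks are BME day 1 and orange to brown marks BME day 5, with circles, squares and triangles for replicates a, b and c. Replicate b of BME day 5 lies at -1.76 for mitosis, where replicates a and c lie at -0.04 and -0.38, but among the other day 5 libraries for the lysosome.

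Between day 1 and day 5, 534 genes (5.07% of those tested) rose and 770 (7.31%) fell, 12.4% in all. These shares are the background against which each gene list below is read. Lists are counted over their tested genes only, and the filter's mean over both days let in some genes through high values at either day. The median change of all genes was -0.15 and 68.7% of them lay below zero, so that changes are best read relative to -0.15. The split depended on this shift. After median-ratio scaling, which brought the median change to -0.01, 1261 genes (12%) rose and 957 (9.09%) fell, which made the higher share of the calls 56.9% in place of 41.0%. Without replicate b of BME day 5, 849 (8.06%) rose and 1604 (15.2%) fell. Of the 534 genes that rose, 512 were also called higher without replicate b and 533 after median-ratio scaling. Of the 770 that fell, 749 and 653 were. Groups that did not overlap were more common than calls, at 13.2% of genes higher and 36.7% lower. With 5 libraries in place of 6 the calls became few in some fits, namely 101 higher and 87 lower without BME day 1 replicate a, 71 and 42 without its replicate b and 89 and 85 without BME day 5 replicate c. All 1304 called genes kept their sign in each of the 6 fits that left out 1 library, and 68 that rose and 38 that fell were called in every one of them. A gene said below to hold in every fit belongs to these 106 genes, and any other call was lost in at least 1 of the 6 fits. The 293 genes named by rule include anchor and replicate b genes that were not called and had no call to lose. Among the called ones, 130, 140 and 77 calls were lost without replicates a, b and c of BME day 1. Without those of BME day 5, 35, 6 and 130 were lost. These losses are thus out of fewer than 293 calls. Since the libraries are of bulk RNA, fewer cells expressing a gene and less RNA of it per cell cannot be told apart.

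Among genes whose mean reached 5 FPKM, most of the largest rises were in secreted and cell-surface proteins. Tpsab1, which encodes a mast cell tryptase, had 1.10, 0.868 and 1.46 FPKM at day 1 and 27.4, 13.96 and 36.3 at day 5, a rise of 4.31 (SE 0.34, limma adjusted p = 0.00188). The next was Enpp2, on chromosome 15 from 54670453 to 54751701 of mm9. It encodes autotaxin, the secreted enzyme that makes lysophosphatidic acid, and went from 7.67, 6.03 and 6.61 FPKM to 94.2, 200 and 110. That is a rise of 4.22 (SE 0.27, limma adjusted p = 0.00151), and of 3.89 without replicate b, which was the highest library. The lipid receptor Trem2, best known from macrophages and microglia, had 0.634, 0.450 and 2.26 FPKM at day 1 and 13.5, 19.6 and 16.6 at day 5 (change 4.07). The groups did not overlap for any of these genes, which the rule that named the largest changes required. Tpsab1 and Trem2 are known from blood cells. Of the 12 blood cell markers, Cd68 had 2.59 to 3.44 FPKM and Cd14 2.23 to 6.43, whereas the other 10 were under 1 in all libraries, with Ptprc (CD45) at most 0.0263 and Csf1r at most 0.0193. Pik3ip1, an inhibitor of phosphoinositide 3-kinase, rose from 1.90 ± 0.14 to 15.4 ± 7.26 FPKM (SD, n = 3), and the amino acid transporter Slc43a2 from 3.42 ± 1.43 to 23.2 ± 4.65. The matrix proteases Mmp11 (change 2.82) and Mmp13 (2.25) rose, as did the matricellular protein Postn (2.61) and the calcification inhibitor Mgp (2.52). The remaining ones of the 12 were Cp, which encodes the copper-carrying ferroxidase ceruloplasmin (2.79), the secreted peptidase Cpq (2.33) and the retinal reductase Dhrs3 (2.05). Tpsab1, Enpp2, Trem2, Pik3ip1, Mmp11, Slc43a2, Postn and Cpq held in every fit with 1 library left out. Cp, Mgp, Mmp13 and Dhrs3 did not, each being lost without BME day 1 replicate a or b or BME day 5 replicate c (adjusted p up to 0.151). Cp and Mgp were highest in replicate b, with 42.2 and 88.3 FPKM there against 7.14 to 8.59 and 20.3 to 28.2 in replicates a and c. Without it their changes were 1.99 and 1.89.

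Above the same mean level, the largest falls were in a chemokine, keratins and glutathione transferases. Cxcl3, a neutrophil-attracting chemokine, had 25.1, 27.8 and 30.9 FPKM at day 1 and 6.37, 1.29 and 4.26 at day 5, a fall by 3.04 on the log2 scale (SE 0.50, limma adjusted p = 0.0144), and -2.40 without replicate b. Krt20, a keratin of differentiated simple epithelia, has its mm9 position on chromosome 11 at 99289717 to 99299467. Its values were 96.3, 98.8 and 99.2 at day 1 and 22.3, 8.02 and 16.5 at day 5 (change -2.77, SE 0.33, limma adjusted p = 0.0058). Krt16, a keratin induced in stressed and hyperproliferative epithelium, went from 171, 211 and 165 to 50.6, 16.0 and 54.6 (change -2.35). All 3 genes were lowest in replicate b, but replicates a and c also lay far below every day 1 library. The alpha class glutathione transferase Gsta1 fell from 123 ± 2.37 to 25.3 ± 4.44 FPKM (SD, n = 3) and Gsta2 from 25.5 ± 2.64 to 6.07 ± 1.09. Gm3776 (change -2.19) and Gm10639 (-2.47) lie beside them on chromosome 9 and are close copies, so that reads may have been split between the 4 genes and their separate values are uncertain. The other large falls were those of Syt7 of regulated exocytosis (-2.32), the protease-activated receptor F2rl1 (-2.15), the cardiac troponin gene Tnnt2 (-2.09), the growth factor carrier Fgfbp1 (-2.06) and the serpin Serpinb9e (-1.90). Krt20, Gsta1, Gsta2, Gm3776, Gm10639, Fgfbp1 and Serpinb9e held in every fit. Cxcl3, Krt16 and F2rl1 were lost without any of the day 1 libraries or BME day 5 replicate c (adjusted p up to 0.119), Tnnt2 without BME day 1 replicate a or b or BME day 5 replicate c, and Syt7 when replicate b of BME day 1 was removed (adjusted p = 0.0628).

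**Figure D2:**
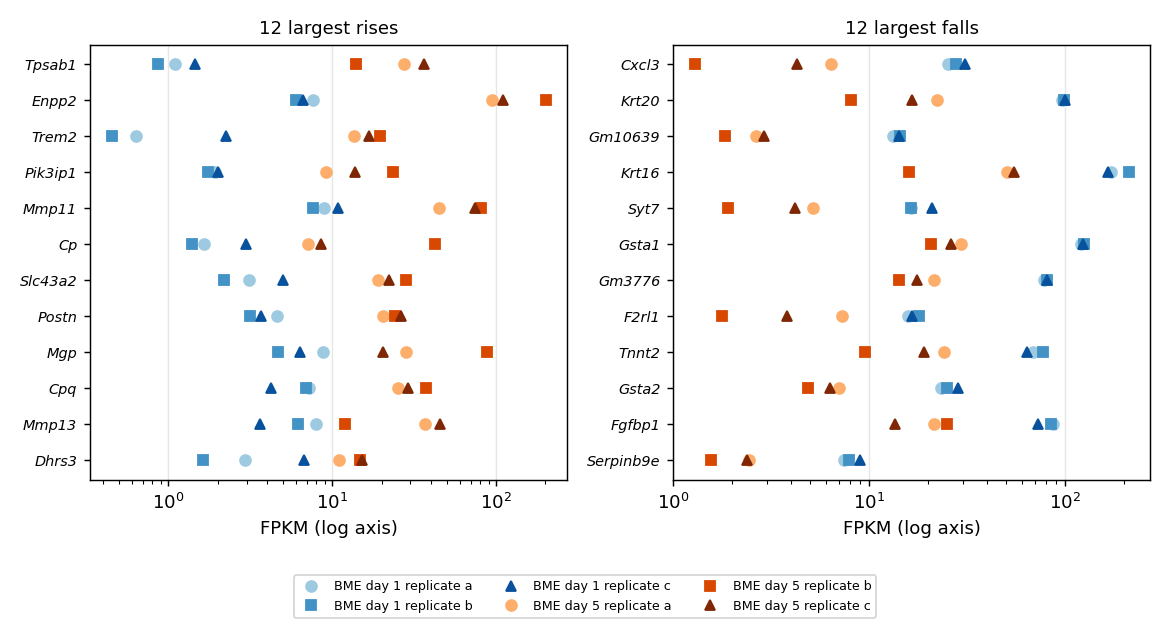
FPKM of the 12 genes with the largest rises and the 12 with the largest falls in each of the 6 libraries, on a log axis, where the mean reached 5 FPKM. Blue marks are BME day 1, orange to brown marks BME day 5, and circles, squares and triangles are replicates a, b and c. By the rule that chose these genes, the groups overlap in none of them. Replicate b of BME day 5 is the outermost day 5 library for Enpp2, Cp and Mgp on the left and for Cxcl3, Krt20 and Krt16 on the right.

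Lysosomal genes gave rises and no fall. Of 48 tested genes of lysosomal enzymes and membrane proteins, 17 (35.4%) rose and none fell, against a background of 5.07% higher, and the list's median change was 0.35 against -0.15 for all genes. After median-ratio scaling 29 rose and none fell, where 12% of all genes rose. Without replicate b 22 rose and none fell, where 8.06% of all genes rose. The list was not uniform. Ctsf, the cysteine protease cathepsin F, had 0.806, 0.650 and 0.647 FPKM at day 1 and 3.64, 9.41 and 4.95 at day 5 (change 2.82, SE 0.32, limma adjusted p = 0.00521). Ctso rose by 1.61 and Ctsh by 1.19. Ctsd and Psap, at much higher levels, rose less than these. The aspartic protease Ctsd had 377, 363 and 426 FPKM at day 1 and 501, 659 and 545 at day 5 (0.54, adjusted p = 0.0477), and Psap, the precursor of the saposins that present sphingolipids to their hydrolases, 585, 556 and 726 and then 847, 971 and 935 (0.57). Every day 5 library was above every day 1 library for both. The membrane glycoprotein Lamp1 (change 0.14), the cysteine protease Ctsb (0.30) and the progranulin gene Grn (0.26) were not called. Leaving out BME day 1 replicate a or b or BME day 5 replicate c reduced the risers to 3, and leaving out BME day 1 replicate c or BME day 5 replicate a to 12. Ctsf, Ctso and Naglu held in every fit. Of 18 genes of the proton pump and its MiT/TFE regulators, 2 rose and 2 fell. Tfeb, a transcriptional activator of lysosomal genes, had 3.70, 3.48 and 4.19 FPKM at day 1 and 5.71, 5.09 and 5.80 at day 5 (0.53, limma adjusted p = 0.0244), whereas its relative Tfe3 fell (-0.47). Among the pump subunits Atp6v0a1 rose (0.42) and Atp6v1g1 fell (-0.81). No call of these 18 genes was left without BME day 1 replicate a or b or BME day 5 replicate c. Tfeb was also lost without BME day 5 replicate a, with a limma adjusted p of up to 0.131 in these fits.

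TFEB and its relatives bind an E-box whose centre is CACGTG, which is its own reverse complement, so that 1 search covers both strands. The promoters of rising lysosomal genes are shown because these genes were called in 1 direction and this motif is the one known for them. In RefSeq promoters of GRCm38.p6, which run from 250 bases before to 50 after each gene's start, CACGTG was found in 13 of 38 genes of the list that matched by symbol (34.2%), in 12.4% of 7878 tested genes that matched and in 8.09% of all 27025 genes. Among members that rose it was found in 5 of 15, and among members not called in 8 of 23. The next lines give the 3 members with the largest rises among those that rose and hold the motif, 5′ to 3′ on the gene's strand, with CACGTG in capitals.
Ctsf: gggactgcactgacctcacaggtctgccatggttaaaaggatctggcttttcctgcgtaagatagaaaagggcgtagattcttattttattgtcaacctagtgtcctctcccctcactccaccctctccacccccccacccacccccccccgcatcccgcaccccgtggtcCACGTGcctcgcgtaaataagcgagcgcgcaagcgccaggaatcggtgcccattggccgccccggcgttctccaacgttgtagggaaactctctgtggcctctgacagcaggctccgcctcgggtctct
Naglu: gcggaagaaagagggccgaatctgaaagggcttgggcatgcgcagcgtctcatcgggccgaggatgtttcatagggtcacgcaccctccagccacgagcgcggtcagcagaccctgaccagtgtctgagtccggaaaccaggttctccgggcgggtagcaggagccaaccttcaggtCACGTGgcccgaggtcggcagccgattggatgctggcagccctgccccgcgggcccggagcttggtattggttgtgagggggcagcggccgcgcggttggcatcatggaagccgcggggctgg
Ctsd: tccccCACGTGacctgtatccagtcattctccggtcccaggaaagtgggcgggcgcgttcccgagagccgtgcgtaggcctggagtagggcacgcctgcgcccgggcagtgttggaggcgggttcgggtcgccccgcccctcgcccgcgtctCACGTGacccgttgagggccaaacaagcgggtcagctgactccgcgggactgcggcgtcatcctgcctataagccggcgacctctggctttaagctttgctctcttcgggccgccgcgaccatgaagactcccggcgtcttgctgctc
They are chr19:4854915-4855214 on the plus strand for Ctsf, chr11:101069844-101070143 on the plus strand for Naglu and chr7:142387778-142388077 on the minus strand for Ctsd. Counted from the gene start, the motif begins at -79 in Ctsf, at -73 in Naglu and at -245 and -98 in Ctsd. Naglu, a heparan sulphate-degrading enzyme, rose from 5.84 ± 0.433 to 11.3 ± 0.835 FPKM (SD, n = 3), and was named here after its values were seen. A match is a description of these letters and says nothing of binding in these cells.

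Few of the core autophagy genes were called. Of 40 tested, 1 rose and 2 fell, with a median of 0.03 against -0.15 for all genes. After median-ratio scaling 6 rose and 3 fell, where 12% and 9.09% of all genes did. Without replicate b 4 rose and 4 fell, where 8.06% and 15.2% of all genes did. Gabarapl1, an LC3 relative, rose (0.46) and the membrane trafficking genes Uvrag (-0.81) and Snap29 (-0.58) fell. None of these held when BME day 1 replicate a or b or BME day 5 replicate c was left out. Becn1 had 44.8, 43.8 and 47.9 FPKM at day 1 and 43.2, 39.6 and 44.2 at day 5, and Map1lc3b 112, 102 and 123 and then 109, 118 and 120, so that the groups overlapped. Atg7, an enzyme of LC3 conjugation, had 4.94, 5.07 and 5.13 and then 6.03, 6.11 and 6.29 (0.28, limma adjusted p = 0.0599), and it was called after median-ratio scaling (adjusted p = 0.0219). The receptors that pick cargo for autophagy gave 3 rises and no fall among 17, namely the endoplasmic reticulum receptor Ccpg1, from 6.77 ± 0.843 to 15.5 ± 2.29 FPKM (1.18), which held in every fit, Calcoco1 (0.73) and the mitophagy kinase Pink1 (0.71). Sqstm1 (p62), the cargo receptor, had a change of -0.20 (adjusted p = 0.226).

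Genes of MHC class I, which displays peptides at the cell surface, tended to higher values. Of 21 tested, 5 (23.8%) rose and none fell, against 5.07% in the background, with a median of 0.48, although 9 of the 21 lay below zero. After median-ratio scaling 10 rose, and also 10 without replicate b, where 12% and 8.06% of all genes did. The light chain gene B2m (mm9 chromosome 2, 121973423 to 121978818) had 342, 320 and 421 FPKM at day 1 and 648, 513 and 718 at day 5 (change 0.79, SE 0.17, limma adjusted p = 0.0293). Nlrc5, the transcriptional activator of class I genes, went from 0.628, 0.519 and 0.851 to 1.64, 1.802 and 2.13 (1.37), and the peptide transporter subunit Tap2 rose by 0.80. Among the heavy chains H2-Q4 rose (0.90), whereas H2-K1, with 18.7, 16.4 and 19.3 FPKM at day 1 and 31.0, 21.98 and 36.7 at day 5, just missed the threshold (0.69, adjusted p = 0.0519). The heavy chain genes are near-identical copies, so that their separate values are uncertain, and H2-Q6, named after its values were seen, had 1.82, 3.20 and 0.00369 FPKM at day 5. None of the 5 calls held without BME day 1 replicate a or b or BME day 5 replicate c. Of 21 interferon response genes tested, 1 rose (Gbp2, 1.73) and 1 fell (Ifitm3, -0.86, a call lost in each of the 6 fits that left out 1 library), with a median of -0.09, and Isg15 (-0.09) was not called.

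Of 35 genes of complement, the acute phase and innate defence, 8 reached the mean of 1 FPKM and were tested. Of these, 5 (62.5%) rose and none fell, against 5.07% of all genes higher, with a median of 1.11. The filter averaged both days, so that a gene low at day 1, such as C3, entered through its day 5 values. The 62.5% is therefore not a share of the whole list. C3, the central complement component, had 0.799, 0.815 and 1.20 FPKM at day 1 and 5.82, 12.7 and 6.38 at day 5 (2.95, SE 0.31, limma adjusted p = 0.00433), and it held in every fit. The chitinase-like protein gene Chi3l1 rose by 2.24, and Cp was described above. Without replicate b, in which C3 and Cp were highest, 5 rose and 1 fell. Only 2 of the calls were left when BME day 1 replicate a or b or BME day 5 replicate c was left out, and 3 without BME day 1 replicate c. Chemokines and cytokines moved both ways. Of 20 tested, 4 rose (20%) and 6 fell (30%), against 5.07% of all genes higher and 7.31% lower. Besides Cxcl3, the neutrophil chemokine Cxcl5 went from 47.5, 51.4 and 33.6 FPKM to 20.7, 8.003 and 14.3 (-1.70) and the alarmin Il1a from 37.7, 43.0 and 20.1 to 13.1, 9.80 and 9.52 (-1.57). Il18 (1.54), the stem cell factor Kitl (1.14) and Il1b (0.69) rose. Ccl2, the monocyte chemokine, had 1.65, 2.15 and 2.58 FPKM at day 1 and 9.10, 2.82 and 11.2 at day 5, so that replicate b lay near day 1. It was not called (1.61, adjusted p = 0.0638), but was called without replicate b (2.22, adjusted p = 0.00383). No call of this list was left without BME day 1 replicate a or b or BME day 5 replicate c. Of 16 NF-kB feedback genes, 4 fell and none rose, among them Traf1 (-1.23), Ier3 (-1.14) and Bcl3 (-0.85). The inhibitor genes Nfkbia (0.50) and Tnfaip3 (-0.14) were not called.

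**Figure D3:**
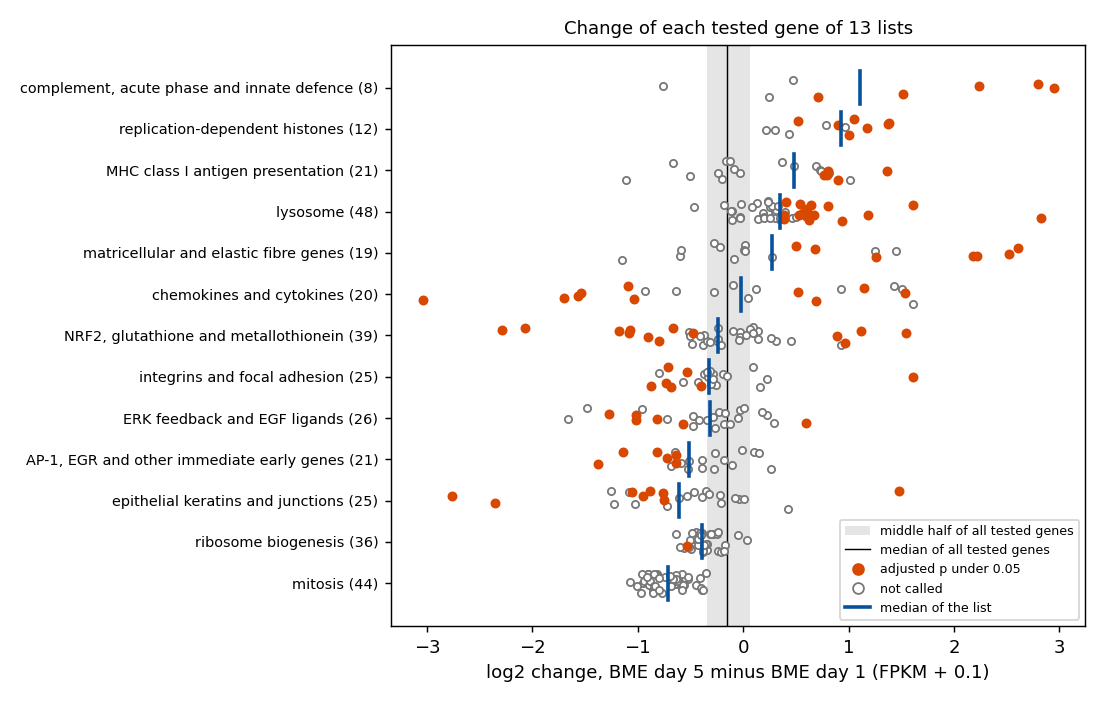
Log2 change from BME day 1 to BME day 5 of each tested gene of 13 lists (number in brackets), with genes at an adjusted p under 0.05 filled in orange, other genes open, and the median of the list as a blue bar. The black line is the median of all tested genes (-0.15), and the grey band holds their middle 50%. The medians of the lysosome (0.35) and MHC class I (0.48) lists lie to the right of the band, and those of the epithelial (-0.61) and mitosis (-0.72) lists to its left, the latter with no filled point.

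Matrix genes moved both ways. Of 36 matricellular and elastic fibre genes 19 were tested. Of these, 7 (36.8%) rose and none fell, against 5.07% of all genes higher. Their median was 0.27, against -0.15 for all genes, and the 36.8% is not a share of the whole list. Postn had 4.59, 3.17 and 3.66 FPKM at day 1 and 20.3, 24.2 and 26.2 at day 5 (SE 0.16, limma adjusted p = 0.00151). The elastic fibre protein Fbln5 rose by 2.22, the antiangiogenic Thbs1 by 1.26 and fibronectin, Fn1, by 0.68, the last from 253, 247 and 313 to 483, 382 and 436 FPKM. Spp1 (osteopontin) was the most abundant of the list, with 2070, 1887 and 4013 FPKM at day 1 and 5162, 8612 and 4711 at day 5, and did not pass the test (1.25, adjusted p = 0.0536), and neither did Ctgf (1.45) or Tnc (-0.27). With BME day 1 replicate a or b or BME day 5 replicate c left out 3 of the list were called, namely Postn, Fbln5 and Ltbp2 (the last named after its values were seen), which held in every fit. Of 13 basement membrane genes 2 rose and 2 fell. Lamb2 of laminin networks (0.72) and the perlecan gene Hspg2 (0.89) rose, and Lama3 (-1.66), which encodes a chain of the epithelial adhesion laminin, was among those that fell. Lama3 went from 4.83, 5.44 and 6.28 FPKM to 2.47, 1.14 and 1.63. Of 21 collagens and their processing enzymes 2 rose and 3 fell. Col7a1, the anchoring fibril collagen, fell from 14.7, 18.9 and 17.0 to 4.41, 4.11 and 5.34 (-1.85, SE 0.13, limma adjusted p = 0.00163), and Col12a1 rose from 32.3, 30.9 and 33.3 to 74.2, 61.3 and 68.3 (1.07). Both held in every fit. Col27a1 (-1.07) and Col16a1 (-0.77) fell, the procollagen C-proteinase enhancer Pcolce rose (0.46), and Col1a1 had 1.69 to 4.32 FPKM in all libraries and was not called. Of 19 matrix proteases and inhibitors 4 rose and 3 fell. Mmp11 went from 8.91, 7.61 and 10.8 FPKM to 44.8, 81.3 and 73.8, and the plasminogen activator Plat rose by 1.37. Adamts4 (-1.46), Adam8 (-1.13) and the protease inhibitor Timp1 (-0.85) fell, and Mmp14 (0.24) and Plau (-0.39) were not called.

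Of 37 integrins and focal adhesion genes 25 were tested. Of these, 6 (24%) fell and 1 rose, against 7.31% of all genes lower and 5.07% higher. The list's median was -0.32, against -0.15 for all genes. Itgb5, part of a vitronectin receptor, was the one that rose, from 49.8, 44.8 and 55.2 FPKM to 119, 212 and 138 (1.61, SE 0.21, limma adjusted p = 0.00771). It missed the threshold only when replicate b of BME day 1 was removed (adjusted p = 0.0595). The laminin receptor chains Itga3, from 40.7, 42.1 and 40.3 to 26.6, 18.8 and 22.3 (-0.87), and Itga6 (-0.69) fell, and so did the collagen receptor Ddr1 (-0.73), which held in every fit, and the adaptor Pxn (-0.71). Their partners Itgb1 (-0.29) and Itgb4 (-0.20), the fibronectin receptor chain Itga5 (-0.32) and the kinase Ptk2 (-0.34) did not pass the test. Without BME day 1 replicate a or b or BME day 5 replicate c, 1 fall was called.

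Epithelial genes lay lower at day 5. Of 25 keratins and junction genes, 7 (28%) fell and 1 rose, against 7.31% of all genes lower and 5.07% higher. The list's median was -0.61 (-0.46 after median-ratio scaling). Cdh1, on chromosome 8 from 109127268 to 109194146 of mm9, had 31.5, 33.3 and 38.0 FPKM at day 1 and 17.3, 16.1 and 15.9 at day 5 (-1.05, SE 0.10, limma adjusted p = 0.0037), and held in every fit. Krt8 went from 859, 878 and 778 to 582, 395 and 521 (-0.76), whereas its partner Krt18 had a change of -0.53 (adjusted p = 0.0781) and Krt14 one of -0.61 with overlapping groups. Krt8 was lost without any of the day 1 libraries or BME day 5 replicate c. The desmosomal p53 target Perp was the one that rose, from 57.4, 52.0 and 70.0 to 147, 174 and 176 (1.48), and it held in every fit. Of 16 mesenchymal genes 3 rose and 1 fell. The transcription factor Twist1 (0.74) and the growth factor receptor Pdgfrb (0.99) rose, beside Fn1, and Sox9 fell (-0.88). Vim, with 616 to 866 FPKM in all 6 libraries, Snai2 (0.27) and Zeb1 (-0.08) were not called. Of the 4 fibroblast markers that were tested, Postn and Pdgfrb rose, while Col1a2, Col3a1, Dcn and Thy1 stayed under 0.07 FPKM in all libraries. Of 32 genes of mammary differentiation and milk 10 were tested. Of these, 3 rose and 1 fell, against 5.07% of all genes higher and 7.31% lower. Without BME day 1 replicate b or BME day 5 replicate c, 1 rise was called. Xdh, which builds the milk fat globule membrane, rose from 9.64, 7.74 and 12.03 to 24.6, 33.1 and 26.3 (1.52) and held in every fit. Stat5a, the mediator of prolactin signalling, rose from 5.82, 4.93 and 7.04 to 10.995, 12.4 and 11.9 (0.99) and Slpi by 1.03, and Aldh1a3 fell (-1.34).

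Among immediate early genes and ERK feedback genes the calls were mostly falls. Of 21 immediate early genes, which respond within an hour to growth factors, 6 (28.6%) fell and none rose, against 7.31% of all genes lower. The list's median was -0.51, against -0.15 for all genes. Egr1 had 41.1, 41.5 and 80.4 FPKM at day 1 and 22.3, 19.8 and 17.5 at day 5. Ier3 fell from 116, 116 and 149 to 62.1, 54.4 and 54.5 (-1.14, SE 0.13, limma adjusted p = 0.00565) and was the 1 member that held in every fit, and Jun fell by 0.81 on the log2 scale. Fos (-0.59) and Fosl1 (-0.65) overlapped between the groups. Of 26 ERK feedback genes and EGF family ligands, 5 fell and 1, the phosphatase Dusp4 (0.60), rose. Phlda1 (-1.28), Dusp7 (-1.02), the receptor inhibitor Errfi1 (-1.01) and Egfr itself (-0.57) fell, and Dusp6 (-0.28), Spry4 (-0.48) and Areg (-0.96) were not called. Without BME day 5 replicate a 10 genes of this list fell, and without BME day 1 replicate b none did. Of 26 YAP/TEAD and SRF targets 3 fell and none rose, namely Fhl2 (-1.02), Amotl1 (-0.73) and Srf (-0.64), and Cyr61 (0.02), Ankrd1 (-0.56) and Ctgf were not called. These 3 calls were lost without any of the day 1 libraries or BME day 5 replicate c.

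Other pathways gave calls in both directions. Of 27 genes of TGF-beta, BMP and activin signalling 3 rose and 1 fell. Tgfb3 went from 15.9, 14.7 and 21.1 FPKM to 45.2, 81.2 and 58.2 (1.81, limma adjusted p = 0.00678), Tgfb1 rose by 0.69 and the inhibitor Smad6 by 0.72. Inhba, the activin A subunit, fell from 120, 138 and 141 to 64.6, 23.6 and 52.9 (-1.62). Tgfb3 missed the threshold when replicate b of BME day 1 was removed (adjusted p = 0.0548), and Smad6, Tgfb1 and Inhba were lost in 4 or 5 of the 6 fits that left out 1 library. Of 27 Wnt genes 3 rose and 2 fell. Wnt4 had 0.672, 0.483 and 0.518 FPKM at day 1 and 2.95, 6.45 and 3.17 at day 5 (2.63), and held in every fit. The Wnt deacylase Notum (3.12) and the receptor Fzd1 (0.45) rose, and Wnt11 (-0.60) and Fzd3 (-0.54) fell. Of 16 Notch genes 2 rose, Notch1 (0.58) and Notch2 (0.43), and 2 fell, the ligand Jag1, from 50.1, 57.3 and 59.1 to 32.3, 21.9 and 34.5 (-0.93), and Numb (-0.36). None of these 4 was called without BME day 1 replicate a or b or BME day 5 replicate c. Of 26 FOXO targets and insulin feedback genes 5 rose and 3 fell. Besides Pik3ip1, the growth factor binding protein Igfbp5 had 0.841, 0.913 and 0.320 FPKM at day 1 and 3.35, 6.16 and 3.68 at day 5 (2.56), and the ubiquitin ligase Fbxo32 went from 2.87, 2.62 and 3.15 to 5.96, 6.61 and 7.41 (1.18) and held in every fit. Eif4ebp1 (-0.69), Ddit4 (-0.71) and Trib1 (-0.79) fell, and Txnip (1.72, adjusted p = 0.0584) was not called. Of 15 clock genes 3 rose and 1 fell. Arntl (BMAL1), the core activator, fell from 9.86, 10.1 and 9.40 to 5.38, 5.18 and 4.95 (-0.91), whereas Dbp (1.26), Tef (0.77) and Per1 (0.46) rose. Arntl and Tef held in every fit. The hour of harvest is not given in the sources used here.

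Genes of DNA replication and mitosis were lower in the median, but none was called. Of 40 DNA replication genes and 44 mitosis genes limma called 0, and at an unadjusted p under 0.05 6 and 8 of them were lower and none higher, a smaller share than the 25.4% of all genes that were lower at that p (10.8% were higher). The medians were -0.47 and -0.72, and without replicate b -0.08 and -0.21, against -0.07 for all genes in that fit. All 44 mitosis genes had a change below zero, and 16 of them had groups that did not overlap, against 36.7% of all genes. Mki67, a marker of cycling cells, had 14.1, 17.9 and 15.8 FPKM at day 1 and 18.5, 4.88 and 14.6 at day 5 (-0.52, SE 0.44, limma adjusted p = 0.398), and a change of 0.05 without replicate b. Top2a had 31.8, 39.1 and 36.8 and then 39.1, 10.3 and 31.0. Replicates a and c of day 5 thus lay within or near the range of day 1, and replicate b far below it. Without replicate b, 5 mitosis genes and 2 S phase genes fell and 1 S phase gene rose. In that fit 15.2% of all genes fell and 8.06% rose. In the other 5 fits that left out 1 library at most 1 gene of each list was called. Among the anchors, Cdc20 (-0.89, adjusted p = 0.136), Mcm2 (-0.61), Pcna (-0.36) and Rrm2 (-0.44) were not called. Of 27 G1 cyclins, inhibitors and pocket proteins 3 rose and 1 fell. The retinoblastoma gene Rb1, which restrains entry into S phase, had 4.15, 3.74 and 4.02 FPKM at day 1 and 6.10, 6.07 and 6.07 at day 5 (0.60, SE 0.09, limma adjusted p = 0.00909), and its relative Rbl2 (p130), a component of the complex that represses cell cycle genes in quiescence, rose by 0.44. The inhibitor Cdkn2b (p15) rose from 25.8, 24.9 and 29.2 to 36.5, 54.7 and 36.5 (0.65), and Cdkn1a (p21) fell from 31.4, 28.1 and 26.1 to 15.3, 20.7 and 15.7 (-0.73). After median-ratio scaling the call of Cdkn1a was lost (-0.59, adjusted p = 0.0703). Cdkn1b (p27, -0.37), Ccnd1 (-0.04) and Myc (-0.22) were not called. Rb1 and Rbl2 were lost without BME day 1 replicate a or b or BME day 5 replicate c, Cdkn1a also without BME day 1 replicate c, and Cdkn2b with any library but BME day 5 replicate b left out.

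**Figure D4:**
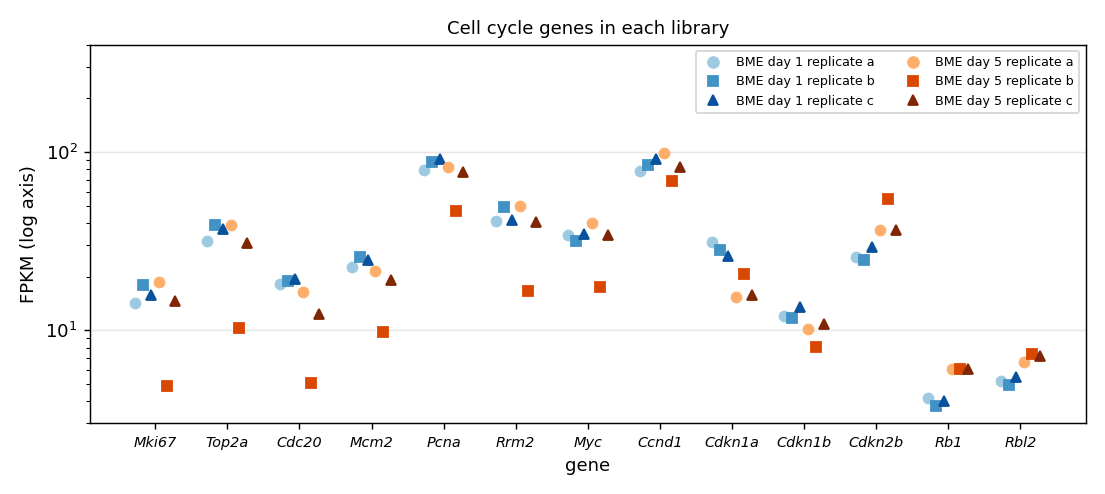
FPKM of 13 cell cycle genes in each library, on a log axis, with BME day 1 in blue, BME day 5 in orange to brown, and circles, squares and triangles for replicates a, b and c. For Mki67, Top2a, Cdc20, Mcm2 and Rrm2 the square of BME day 5 replicate b lies below all other libraries, whereas for Rb1 the 3 day 5 libraries lie together at 6.07 to 6.10, above day 1.

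The tested replication-dependent histone genes, whose messages normally lack a poly(A) tail, were higher at day 5. Of 56 in the list only 12 reached the mean of 1 FPKM over both days and were tested. Of these, 7 (58.3%) rose and none fell, against 5.07% of all genes higher, with a median of 0.93. The share does not describe the whole family. Hist2h2aa1 had 6.02, 5.74 and 5.93 FPKM at day 1 and 12.9, 19.3 and 15.1 at day 5 (1.39, limma adjusted p = 0.00447) and held in every fit, and Hist2h3c1 (1.38) and Hist1h4h (1.18) rose as well. All 56 genes of the list took 0.024% to 0.025% of all FPKM at day 1 and 0.032%, 0.059% and 0.039% in replicates a, b and c of day 5. Whether this share bears on the calls was not tested. With any day 1 library or BME day 5 replicate c left out, 1 of the list was called. The copies of these genes are similar in sequence, so that their separate values are uncertain. Of 13 nuclear and small RNA host genes limma called none and 1 was higher at an unadjusted p under 0.05 (Neat1 had a change of 0.76, Malat1 of 0.49).

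Growth and energy genes had small negative changes that mostly missed the test. Of 36 ribosome biogenesis genes 1, the polymerase I subunit Polr1b (-0.54), fell, although 32 of the 36 had groups that did not overlap, with day 5 below, as had 36.7% of all genes. Ncl had 75.8, 75.5 and 68.3 FPKM at day 1 and 64.7, 35.6 and 60.9 at day 5 (-0.49, adjusted p = 0.152) and Fbl 80.2, 75.5 and 75.04 and then 61.6, 33.9 and 58.2 (-0.63, adjusted p = 0.0917). Replicate b was the lowest library for both, and 12 genes of the list fell without it. In that fit 15.2% of all genes fell, and the counts without replicate b below are read beside this share. Of 65 ribosomal protein genes limma called none, with a median of -0.31 and 19 lower at an unadjusted p under 0.05 (25.4% of all genes). Without replicate b 9 of the 65 fell, against 15.2% of all genes. Of 37 translation factors and tRNA synthetases 4 fell and none rose, among them Cars (-0.71), Tars (-0.71) and the translation repressor Eif4ebp1, and 20 fell without replicate b but none without BME day 1 replicate a or b or BME day 5 replicate c. Of 31 proteasome genes limma called none, with 21 lower at an unadjusted p under 0.05, against 25.4% of all genes. Without replicate b 17 of them fell, against 15.2% of all genes in that fit. In the other 5 fits that left out 1 library no ribosomal protein or proteasome gene was called. Of 49 nuclear genes of oxidative phosphorylation 2 fell, Sdhb (-0.68) and Uqcrc1 (-0.43), and 12 without replicate b. In all of these lists the median without replicate b lay between -0.12 and -0.29, against -0.07 for all genes in that fit. Of 21 glycolysis genes 2 fell and 1, the enolase Eno2 (0.53), rose. The glucose transporter Slc2a1 went from 25.8, 27.2 and 24.4 FPKM to 15.4, 13.5 and 13.6 (-0.86) and held in every fit, and the lactate transporter Slc16a1 from 36.7, 38.0 and 37.9 to 24.99, 18.6 and 22.2 (-0.78). Of 19 hypoxia targets 3 fell and none rose, Slc2a1, Vegfa (-0.84) and Ddit4. Hk2 (-0.38) and Ldha (-0.47) were not called.

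Lipid genes gave calls both ways. Fabp4, a fatty acid binding protein, had 0.0816, 0.165 and 0.164 FPKM at day 1 and 3.17, 2.40 and 3.43 at day 5 (3.72, SE 0.29, limma adjusted p = 0.00188) and held in every fit. The adipocyte markers Adipoq, Plin1, Lep and Cfd were at 0.0368 FPKM or less in all libraries. Of 20 genes of fatty acid oxidation and lipid droplets 3 rose, with the lipase inhibitor Angptl4 (0.82) and the lipase Pnpla2 (0.42) besides Fabp4, and 2 fell, the nuclear receptor Ppard (-1.03) and Fabp5 (-0.79). Plin2, at 919 to 1048 FPKM, did not pass the test (-0.10), and neither did Cpt1a (0.33) or Pdk4 (0.05). Of 19 fatty acid synthesis genes 2 fell, Elovl6 (-0.80) and Fasn (-0.60), and none rose, and Fasn was not called after median-ratio scaling (adjusted p = 0.108). Scd1 had 139, 125 and 111 FPKM at day 1 and 99.7, 221 and 89.1 at day 5, so that replicate b lay above and the others below day 1. Of 22 cholesterol synthesis genes limma called none, with 3 lower at an unadjusted p under 0.05, against 25.4% of all genes. Without replicate b 4 fell, against 15.2% of all genes, whereas Sqle (-0.02) was not called with all 6 libraries. Of 11 sterol efflux genes 2 rose and 1 fell. Apoe rose from 4.32, 4.05 and 3.75 to 6.63, 8.10 and 7.76 (0.87) and the lysosomal cholesterol carrier Npc2 by 0.63, Lpcat3 fell (-0.45), and Abca1 was not called (1.14, adjusted p = 0.0709). Apoe missed the threshold only when replicate b of BME day 1 was removed (adjusted p = 0.0595). Of 14 iron genes 3 rose and none fell, with the exporter Slc40a1 from 8.25, 6.83 and 7.55 to 12.7, 24.5 and 15.1 (1.15) and the reductase Steap3 (0.59) besides Cp. Fth1 and Tfrc were not called.

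Of 39 genes of NRF2 targets, glutathione and metallothionein, 9 (23.1%) fell and 4 (10.3%) rose, against 7.31% of all genes lower and 5.07% higher. The glutathione transferases moved both ways. The alpha class genes fell as given above, and the theta class genes Gstt2, from 2.35, 2.27 and 2.68 FPKM to 4.61, 11.6 and 7.16 (1.55), and Gstt3 (1.12) rose, with the microsomal Mgst1 (0.97). The carboxylesterase Ces1g fell (-1.17). The common NRF2 targets Nqo1, with 411, 424 and 585 and then 353, 280 and 355 FPKM (-0.51, adjusted p = 0.0884), and Hmox1 (-0.03) were not called, and neither were Gstm1 (0.32) or Mt1 (0.26). Of 29 ATF4 targets and amino acid genes 4 fell and none rose, with a median of -0.47, and 8 fell without replicate b but none without BME day 1 replicate a or b or BME day 5 replicate c. The cystine transporter Slc7a11 (-0.72) and the transaminase Gpt2 (-0.68) fell, and Asns (-0.78), Ddit3 (-0.01) and Nupr1 (-0.25) were not called. Of 28 endoplasmic reticulum genes 3 fell, Manf (-0.82), Creld2 (-0.70) and Syvn1 (-0.49), and 1, Derl3, rose (1.81), while the chaperone Hspa5 (-0.50) and Xbp1 (-0.41) were not called. Of 23 heat shock genes 1 fell, Hspa4l (-0.65), and Hspa8, Hsp90aa1 and Hspa1b were not called.

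The last lists concern survival and dormancy. Of 28 BCL2 family and caspase genes 3 rose and 4 fell. The antiapoptotic Bcl2 went from 1.56, 1.62 and 1.61 FPKM to 2.62, 2.96 and 2.45 (0.71), and Casp12 (1.03) and Casp4 (0.95) rose. The apoptosis effectors Bak1 (-0.56) and Bok (-0.60) were among those that fell. Mcl1 (0.34, adjusted p = 0.0605), Bcl2l1 (0.31) and Bcl2l11 (0.54) were not called. No call of this list was left without BME day 1 replicate a or b or BME day 5 replicate c. Of 25 p53 targets 2 rose, Perp and Gadd45a (1.06), and 3 fell, among them Mdm2 (-0.43) and Plk3 (-0.42), and Ccng1 and Trp53inp1 were not called. Of 25 genes linked to tumour dormancy in other systems 4 rose and 5 fell. The risers included Igfbp5, Thbs1 and Mme (0.99), the last being lost in each of the 6 fits that left out 1 library. Rarb went from 2.38, 2.71 and 2.57 to 0.716, 1.30 and 0.682 (-1.46), Cd109 fell (-1.84) and so did Sox9, whereas Nr2f1 (-0.26), Bhlhe41 (-0.40) and Axl (-0.47) were not called. Of 36 primary cilium genes 1 rose (Ift27, 0.57) and 1 fell (Ift20, -0.43), and Ift88 was not called (0.19). Of 32 chromatin genes 2 rose, Hdac11 (0.82) and Cbx6 (0.39), and 1 fell, Hmga1, from 94.9, 89.6 and 99.5 to 64.7, 36.4 and 51.9 (-0.93). Ezh2 (-0.48), Dnmt1 (-0.74) and Lmnb1 (-1.08) were not called, each with its lowest value in replicate b. Of the marker lists, 2 of 5 tested epithelial markers fell and none rose, the endothelial Flt1 fell (-0.47), and neither the 2 mammary luminal nor the 2 blood cell markers tested were called.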

How the data were processed

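Sequencing covered 3 libraries of D2.0R cells for each of the BME day 1 and BME day 5 groups. The deposited values are FPKM per transcript, which the authors obtained with Cufflinks (version not given in the sources used here) on mm9. The submitters' processing notes list TopHat2 2.0.8 and, beside it, Trimmomatic 0.30, CASAVA 1.8.4 and the Partek software. FPKM of 30563 transcripts were summed per gene symbol, and genes whose mean over the 6 libraries reached 1 FPKM were kept. FPKM carries no read counts, so no count test was run. log2(FPKM + 0.1) was fitted by limma 3.58.1 (R 4.3.3) with 2 group means and an intensity trend (4 residual degrees of freedom), two-sided, with Benjamini-Hochberg adjustment over the 10530 genes. The BME plus COL1 libraries were left out of the fit because their replicates lie closer together (median absolute log2 differences of 0.049 to 0.082, against 0.09 to 0.289 at BME day 5), which would make a shared spread too small here. The BME day 1 replicates differed by 0.066 to 0.144, and the fit shares its spread between BME day 1 and BME day 5, so that this limit is lessened and not removed. No library was a copy of another. The scripts were tested on simulated data. Summaries were made with pandas 2.3.3 and numpy 2.4.6 in Python 3.11.15, and figures with matplotlib 3.10.9.

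The genes and the 57 lists were chosen with earlier results of these data known, so that neither is independent evidence. Named genes were the 12 largest rises and falls among called genes whose mean reached 5 FPKM, with groups that do not overlap and the same call after median-ratio scaling, for each list at most 3 rises and 3 falls, anchor genes set for each list, and, for replicate b, the 10 genes farthest above and below the other day 5 libraries. No set test was run. Depth limits precision as given by the intervals of Cufflinks, which cover counting error and assignment only. Fits with another pseudocount, filter, scaling, spread, replicate block, set of libraries or threshold were tried. Some genes that the rule names are not reported here.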

Additional observations from a re-analysis of the deposited data

How the results depend on the processing

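The fit called 534 genes higher at BME day 5 and 770 genes lower at BME day 5. The count higher was 1261 after median-ratio scaling, 1141 after quantile normalization, 1361 without genes under 300 nt, 1315 with median-ratio scaling and no BME day 5 replicate b, and 336 with a minimum mean of 5 FPKM. The fit without genes under 300 nt left out 62 tested genes. It also rescaled each library by its total FPKM over the longer genes, so that its count does not show the effect of the omission alone. The count lower was 454 with no minimum. Higher and lower counts were 912 and 1222 on TPM scaling, 988 and 2325 with all 9 libraries in the fit, 1991 and 2911 with sample weights (which gave BME day 5 replicate b a weight of 0.099), 114 and 89 at an adjusted p under 0.01, and 159 and 150 with a 2-fold minimum. With 1 library left out they ran from 71 to 849 higher and from 42 to 1604 lower, lowest without BME day 1 replicate b and highest without BME day 5 replicate b. Apart from the replicate block, given last, the other alternatives stayed within 1.5 times. Among named genes, the falls of Cdkn1a, Fasn, Ddit4, Fzd3, Numb, Creld2, Ces1g and Flt1 were not called after median-ratio scaling (adjusted p from 0.0505 for Fzd3 to 0.108 for Fasn). The cause of these shifts was not tested. Scd1 (0.01 in the report) was -0.48 with sample weights and -0.40 without BME day 5 replicate b, its values with 1 library left out running from -0.40 to 0.25. Isg15 was 0.43 and the clock repressor Nr1d1 0.39 with sample weights, and Nr1d1 0.37 with median-ratio scaling and no BME day 5 replicate b. Depth limits single values as the Cufflinks intervals in the report give it.

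Replicate letters are not stated to pair the samples. Whether they do was not settled, since deviations from the means of 3 libraries can miss a shared day. The deviations of same-lettered libraries from their group means correlated at -0.02, 0.03 and -0.06 for a, b and c. With the replicate block 397 genes higher at BME day 5 and 513 genes lower at BME day 5 were called, and with the block and median-ratio scaling 709 and 497. Not every library correlated best with its own letter.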
